A study of Mus musculus with 8 samples.

Results

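The genes of the proteasome, the protease complex that degrades ubiquitin-tagged proteins, were followed in group 2 innate lymphoid cells (ILC2) sorted from the thymus of young male mice. The members were all genes whose symbol starts with Psma, Psmb, Psmc, Psmd, Psme, Psmf or Psmg and a number, and 49 of the 10913 genes listed matched. The study set 4 libraries from mice lacking Il25 (Il25 KO) against 4 from age-matched wild-type mice (WT). No mouse had received a treatment, and the thymi were dissociated with Liberase TM and DNase before the sort. IL-25 is a cytokine made by tuft cells, a chemosensory epithelial cell type, and ILC2 carry its receptor. The design sets thymic ILC2 without IL-25 beside those with it, transcript by transcript. The libraries were made by MARS-seq, which counts the 3′ ends of polyadenylated RNA with unique molecular identifiers (UMIs), 1 per captured molecule. The labels number the libraries as replicates and do not tie them to separate mice, so p-values measure the spread between these libraries.

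The proteasome has a barrel-shaped core, the 20S particle, built of outer alpha rings that gate the entrance and inner beta rings that hold the cutting sites. The 19S particle caps the core, binds ubiquitin, unfolds the substrate with a ring of ATPases and feeds it in. In lymphocytes and in cells that meet interferon gamma, the catalytic subunits encoded by Psmb5, Psmb6 and Psmb7 can be replaced by those of Psmb8, Psmb9 and Psmb10, which gives the immunoproteasome, a form that favours peptides suited to MHC class I. Cortical epithelial cells of the thymus make a further catalytic subunit from Psmb11, which was not analysed here.

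The 8 libraries held 1915365 to 3250718 UMIs, and the proteasome genes took 1.2% to 1.35% of them. Levels are given as CPM, the UMI count per 1000000 UMIs of the library after TMM scaling, which evens out differences in composition. Il25 itself was not analysed here, and the genotype labels could therefore not be checked on it. Of 11 listed ILC2 genes, 8 passed the filter on low counts, among them Gata3, Id2, Il7r and Il17rb, with Gata3 at 51.7 to 82.0 CPM in Il25 KO and 48.8 to 65.5 CPM in WT. The other 3, Icos, Il4 and Il13, were scarce: Icos had 0 UMIs in Il25 KO replicate 2, Il4 had 0 in Il25 KO replicate 2 and in WT replicates 1 and 2, and Il13 stood at 1.29 to 9.17 CPM in Il25 KO and 0.787 to 7.78 CPM in WT. Every Il25 KO library lay above every WT library in Il17rb and in Areg, an ILC2 growth factor gene, which stood at 32.9 to 61.9 CPM in Il25 KO and 15.7 to 32.5 CPM in WT. These were 2 of the 8 tested, beside 2.92% of all 9016 genes tested.

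Transcripts listed as markers of other cell types were present, and bulk libraries do not show which cells made them. In some the groups did not overlap, though edgeR called 0 of the listed markers of any type at an adjusted p under 0.05. Of 12 tested thymocyte and T cell markers, 8 had a log2 fold change below 0, beside 50.5% of all 9016 genes tested. At an unadjusted edgeR p under 0.05, 5 were lower and 1 higher in Il25 KO. Of all genes tested, 5.71% were lower and 5.12% higher at that threshold. Every Il25 KO library lay below every WT library in Cd3d (120.1 to 188 CPM in Il25 KO and 216 to 317 CPM in WT), Cd8b1, Ptcra and Cd2. These were 4 of the 12 tested, beside 2.31% of all genes tested. The log2 fold change of Cd3d was -0.73 ± 0.15 (SE) at an edgeR adjusted p of 0.0521. WT replicate 1 held the most of several of these transcripts, with 355 CPM of the coreceptor gene Cd8b1, but the other WT libraries, at 55.5 to 65.0 CPM, also lay above the Il25 KO libraries, at 33.6 to 47.9 CPM. The summed level of the 14 markers measured was 3834 to 4353 CPM in Il25 KO and 3575 to 4796 CPM in WT. Its most abundant gene was Dntt, which ran the other way, at 2170.2 to 2542 CPM in Il25 KO and 1828 to 2110.0 CPM in WT, and Trac, Trbc1 and Trbc2 were not analysed here. All 4 ILC3 markers measured had log2 fold changes below 0. At an unadjusted edgeR p under 0.05, 3 of them were lower, beside 5.71% of all genes tested. Their sum was 25.4 to 39.9 CPM in Il25 KO and 34.8 to 68.1 CPM in WT. Among the 4, Ahr and Nrp1 were lower in every Il25 KO library than in any WT library, beside 2.31% of all genes tested. Gzma, listed as an NK cell marker, stood at 442 to 624 CPM in Il25 KO and 512 to 677 CPM in WT, and its log2 fold change was -0.31 ± 0.13 (SE). Tbx21, the other marker of that list measured, did not pass the filter, with 15 UMIs in Il25 KO and 10 in WT. Ncr1, Klrb1c, Eomes and Prf1 of the same list were not analysed here. The 4 cortical epithelial markers measured (Prss16, Ccl25, Ly75 and Krt8) summed to 15.8 to 24.8 CPM in Il25 KO and 17.3 to 23.6 CPM in WT. The summed level of 11 heat shock and dissociation stress genes was 36638, 30409.6, 30908 and 39299 CPM in the Il25 KO libraries and 29885, 20865, 23631 and 27742 CPM in the WT libraries. Every Il25 KO library lay above every WT library in that sum. Singly, this held for 3 of the 10 stress genes tested, beside 2.92% of all genes tested. In the most abundant of them, Hspa1a and Hspa1b, the groups overlapped. In 1 of the 10, Hsp90aa1, the log2 fold change was below 0, at -0.017 ± 0.16 (SE), beside 50.5% of all genes tested. The part of any of these marker and stress transcripts in the values of the proteasome genes was not tested.

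No proteasome gene passed the test, and most had a log2 fold change slightly below 0. Of the 49 genes, 47 passed the filter on low counts, and 0 of these 47 were called higher or lower at an adjusted p under 0.05 by edgeR's quasi-likelihood test, beside 0.211% of all 9016 genes tested (0.177% higher and 0.0333% lower). At an unadjusted p under 0.05, 6 of 47 (12.8%) were lower and 0 were higher, beside 5.71% of all genes lower and 5.12% higher. DESeq2 called 1 proteasome gene, Psmb5, as lower, beside 0.499% of all genes in either direction (0.311% higher and 0.189% lower), and limma-voom called 0. The log2 fold change of Il25 KO over WT was below 0 in 38 of the 47 (80.9%), beside 50.5% of all genes. Its median was -0.089 over the proteasome genes and -0.0022 over all genes, and single genes ran from -0.54 (Psma4) to 0.14 (Psmd5). Without WT replicate 1 the median was -0.125. In 2 of the 47 (4.26%), Psmb5 and Psmg1, every Il25 KO library lay below every WT library, beside 2.31% of all genes, and in 0 did every Il25 KO library lie above, beside 2.92%. The proteasome genes had a median level of 183 CPM, against 21.4 CPM over all genes listed, so the shares compare genes of unlike level. Proteasome genes are also co-expressed, so these shares are a description of the libraries and not a test of the set. Less RNA per cell and fewer cells with the RNA cannot be told apart in such bulk samples.

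**Figure D1:**
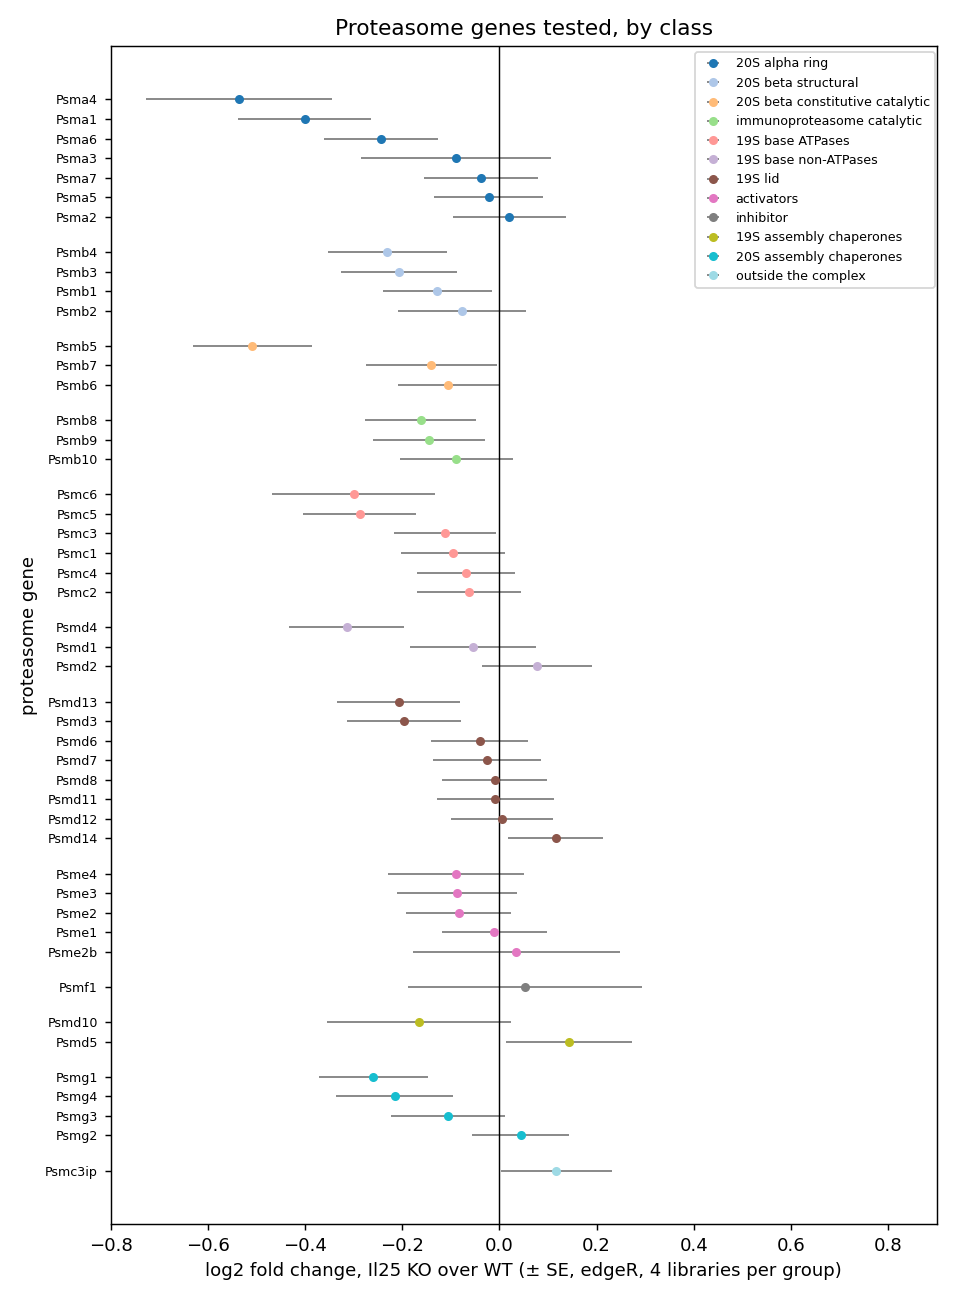
Log2 fold change of Il25 KO over WT (x axis, ± SE from edgeR, 4 libraries per group) of the 47 proteasome genes tested, grouped and coloured by class. Most points lie left of 0, between -0.54 for Psma4 and 0.14 for Psmd5, and none passed the adjusted threshold.

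The gene with the lowest p was Psmb5, which encodes the constitutive subunit with chymotrypsin-like activity, the site most proteasome inhibitor drugs bind. Its level was 111, 169, 119.9 and 143 CPM in the Il25 KO libraries and 179.5, 207, 187 and 195 CPM in the WT libraries, from 1340 UMIs in Il25 KO and 2115 UMIs in WT. The highest Il25 KO library, replicate 2, still lay below the lowest WT library, replicate 1. The means were 136 ± 26.0 CPM in Il25 KO and 192 ± 12 CPM in WT (± SD, 4 libraries each). The log2 fold change was -0.51 ± 0.12 (SE), or 29.7% lower in Il25 KO. It did not pass over all genes, with an edgeR adjusted p of 0.111. DESeq2 gave a log2 fold change of -0.51 with an adjusted p of 0.0334. The authors' deposited table, with its sign turned to Il25 KO over WT, gave -0.51 with an adjusted p of 0.0472, beside 0.33% of its 10913 genes under 0.05, and did not mark Psmb5 as passing its own criteria. Without Il25 KO replicate 2, the shallowest library, edgeR gave -0.62 with an adjusted p of 0.0161, while its adjusted p was 0.342 without Il25 KO replicate 1, 0.294 without Il25 KO replicate 3, 0.380 without WT replicate 2 and 0.252 without WT replicate 4. With 1 of the other 3 libraries left out it lay from 0.0862 to 0.171. Its p therefore stood on either side of the threshold while its direction was the same in every fit run.

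The other constitutive catalytic genes did not pass the test either. Psmb6, which encodes the subunit with caspase-like activity, stood at 611, 606, 531 and 613 CPM in the Il25 KO libraries and at 641, 639, 602 and 657 CPM in the WT libraries. Its groups overlapped because WT replicate 3 lay within the Il25 KO values, and Il25 KO replicate 3 was the lowest of the 8. Psmb7, which encodes the subunit with trypsin-like activity, stood at 117, 168, 189.9 and 132 CPM in the Il25 KO libraries and at 152, 190.1, 164 and 163 CPM in the WT libraries. Its groups overlapped widely, since Il25 KO replicate 3 was about as high as the highest WT library. Psmb6 had a log2 fold change of -0.10 ± 0.10 (SE) at an adjusted p of 0.753 by edgeR. For Psmb7 the log2 fold change was -0.14 ± 0.13 (SE) at an edgeR adjusted p of 0.745. Summed over Psmb5, Psmb6 and Psmb7, the level was 839.6, 944, 841 and 888 CPM in the Il25 KO libraries and 973, 1036, 953 and 1015 CPM in the WT libraries. In that sum the groups did not overlap, by a narrow margin.

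The promoters of Psmb5, Psmb8 and Psmb9 are shown because the constitutive and the immunoproteasome genes are known to be under different control. Each is the 300 bases of the RefSeq table (GRCm38.p6), 250 before the RefSeq transcription start and 50 after it. Capitals mark every match to the motifs searched on both strands. The motifs were TGACNNNGC, the core of the antioxidant response element through which the factor encoded by Nfe2l1 raises proteasome genes, CCAAT, the motif of interferon regulatory factors (GAAA, any 2 bases, then GAAA), and GAANNTTC, a pair of heat shock element units. No matches overlapped in the windows printed.
Psmb5 (chr14:54617946-54618245, minus strand): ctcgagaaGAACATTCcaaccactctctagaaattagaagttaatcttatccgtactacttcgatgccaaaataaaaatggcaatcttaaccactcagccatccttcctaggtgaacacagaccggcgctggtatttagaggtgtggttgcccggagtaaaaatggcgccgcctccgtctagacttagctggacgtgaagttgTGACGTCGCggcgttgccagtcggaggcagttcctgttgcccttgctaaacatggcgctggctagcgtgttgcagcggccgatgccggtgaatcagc
Psmb8 (chr17:34197945-34198244, plus strand): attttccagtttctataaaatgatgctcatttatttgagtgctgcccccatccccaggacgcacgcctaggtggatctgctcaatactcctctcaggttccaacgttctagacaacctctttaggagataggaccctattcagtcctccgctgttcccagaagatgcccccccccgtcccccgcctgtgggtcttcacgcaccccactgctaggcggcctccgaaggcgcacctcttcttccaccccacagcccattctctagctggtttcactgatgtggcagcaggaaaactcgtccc
Psmb9 (chr17:34187281-34187580, minus strand): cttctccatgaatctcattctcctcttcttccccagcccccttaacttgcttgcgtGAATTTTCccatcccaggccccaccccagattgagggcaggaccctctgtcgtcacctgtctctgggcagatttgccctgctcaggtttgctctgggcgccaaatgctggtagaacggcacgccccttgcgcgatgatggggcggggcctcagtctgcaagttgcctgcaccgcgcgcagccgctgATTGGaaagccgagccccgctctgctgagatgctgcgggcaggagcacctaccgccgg
The Psmb5 window held 1 match to TGACNNNGC and 1 to GAANNTTC, the Psmb9 window 1 match to CCAAT, read on the other strand, and 1 to GAANNTTC, and the Psmb8 window none. By the GENCODE M21 annotation, the Psmb5 window spans the start of its gene, at 54618022. The Psmb8 and Psmb9 windows lie wholly inside their genes, which start at 34197721 and 34187764. The windows thus cover unlike regions, and their matches do not compare the control of constitutive and immunoproteasome genes. The Psmb9 window shares 275 bases with that of Tap1, the neighbouring gene on the opposite strand, which encodes a subunit of the peptide transporter of class I presentation. RefSeq windows were found for 41 of the 49 genes, 44 windows in all because 3 genes had 2. Of these 44, 6 (13.6%) held TGACNNNGC, beside 12.4% of all 32851 windows of the table, and they belonged to Psmb5, Psmb6, Psmc6, Psmd9, Psmd12 and Psme4. CCAAT was in 31.8% beside 37.4%, GAANNTTC in 6.82% beside 7.86%, and the interferon regulatory factor motif in 5 of 44 (11.4%) beside 3.44%, the windows of Psmb3, Psmd4, Psmd9, Psme1 and Psmg4. A match is a run of letters and not a measured binding site.

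The immunoproteasome genes were highly expressed in both groups and did not pass the test. Psmb8, which encodes the inducible counterpart of the Psmb5 product, stood at 1185, 1147, 1151 and 1391 CPM in the Il25 KO libraries and at 1328, 1414, 1199 and 1514 CPM in the WT libraries. It was the most abundant of the 49 genes, and its groups overlapped, with Il25 KO replicate 4 among the WT values. Psmb9, the counterpart of Psmb6, stood at 361, 312, 329 and 417 CPM in the Il25 KO libraries and at 349, 420.0, 384 and 416 CPM in the WT libraries. Psmb10, the counterpart of Psmb7, stood at 366, 359.7, 283 and 390.2 CPM in the Il25 KO libraries and at 358, 419, 346 and 363 CPM in the WT libraries. Both overlapped between the groups. Their log2 fold changes were -0.16 ± 0.12 for Psmb8, -0.14 ± 0.11 for Psmb9 and -0.088 ± 0.12 for Psmb10 (SE), with edgeR adjusted p of 0.641, 0.682 and 0.823. In the annotation Psmb9 overlaps Tap1 on the opposite strand, and whether reads were counted by strand is not stated by any source used here.

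**Figure D2:**
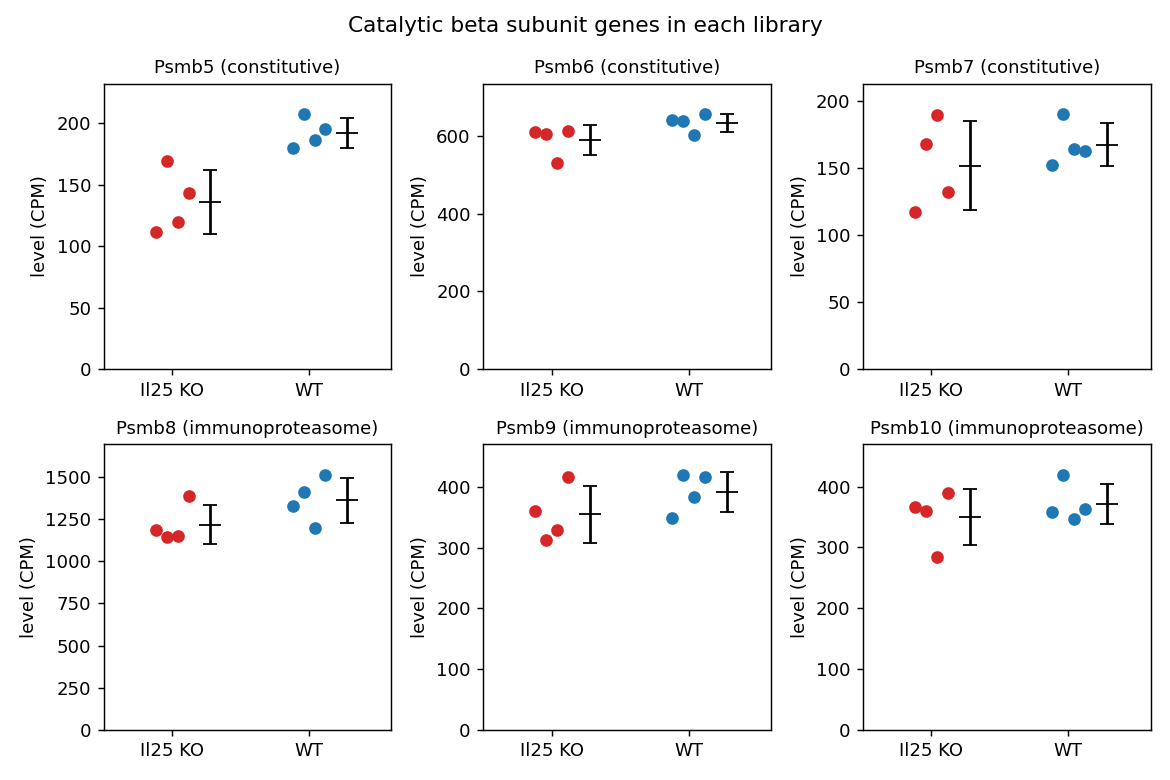
Level in CPM (y axis, from 0) of the 3 constitutive and 3 immunoproteasome catalytic genes in each of the 4 Il25 KO and 4 WT libraries (points), with mean ± SD beside them. Psmb5 is the panel in which the groups do not overlap, at 111 to 169 CPM in Il25 KO and 179.5 to 207 CPM in WT.

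Within each catalytic pair, the inducible gene held a share of the UMIs that differed from pair to pair. UMI counts at the 3′ end do not scale with transcript length, though capture can differ between genes. Psmb8 held 91.4, 87.1, 90.6 and 90.7% of the UMIs of Psmb8 and Psmb5 in the Il25 KO libraries and 88.1, 87.2, 86.5 and 88.6% in the WT libraries. This share was high everywhere, and Il25 KO replicate 2 lay within the WT values while the other 3 Il25 KO libraries lay above them. Counting error alone gave exact (Clopper-Pearson) 95% intervals of at most 1.36 percentage points on either side for this pair, 2.26 for the pair of Psmb9 and 2.96 for that of Psmb10. Psmb9 held 37.1, 34.0, 38.3 and 40.5% of the UMIs of Psmb9 and Psmb6 in Il25 KO and 35.2, 39.7, 39.0 and 38.8% in WT, so here the constitutive gene was the more abundant one in every library. Psmb10 held 75.7, 68.1, 59.9 and 74.8% of the UMIs of Psmb10 and Psmb7 in Il25 KO and 70.2, 68.8, 67.8 and 69.0% in WT. The WT libraries lay close together in this pair. Il25 KO replicates 1 and 4 lay above the WT values, replicate 3 below them and replicate 2 within them. The mean shares were 90.0 ± 1.91% in Il25 KO and 87.6 ± 0.914% in WT for Psmb8 (SD, n = 4 each). For Psmb9 they were 37.5 ± 2.71% in Il25 KO and 38.2 ± 1.99% in WT, and for Psmb10 69.6 ± 7.31% in Il25 KO and 69.0 ± 0.976% in WT.

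**Figure D3:**
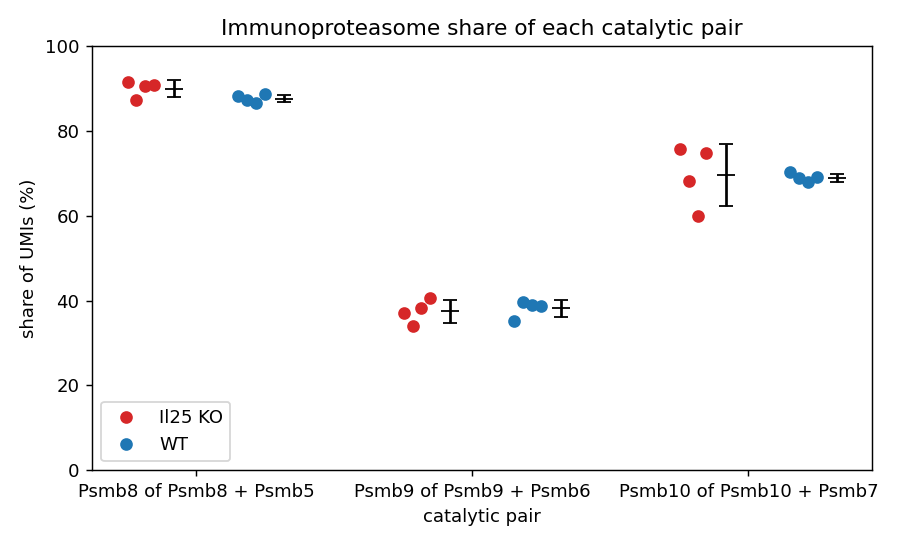
Share of UMIs (y axis, percent) that the immunoproteasome gene held within each catalytic pair, in each Il25 KO (red) and WT (blue) library, with mean ± SD beside the points. The groups overlap in all 3 pairs, and the Psmb10 share spreads more in Il25 KO, at 59.9% to 75.7%, than in WT, at 67.8% to 70.2%.

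The alpha ring genes split into 3 that lay lower in Il25 KO and 4 that lay near 0. Psma1, an alpha ring subunit gene, stood at 164, 194, 123 and 186 CPM in the Il25 KO libraries and at 192, 262, 219 and 204 CPM in the WT libraries. Il25 KO replicates 1, 3 and 4 lay below all WT values, and replicate 2 lay within them. Psma4, another, stood at 50.3, 99.9, 56.7 and 82.1 CPM in the Il25 KO libraries and at 69.4, 119, 126 and 98.4 CPM in the WT libraries. Here Il25 KO replicates 1 and 3 were the lowest of the 8, and WT replicates 1 and 4 lay among the Il25 KO values. Psma6, a further alpha gene, stood at 183, 229, 173 and 233 CPM in the Il25 KO libraries and at 230.1, 269.6, 236 and 230.0 CPM in the WT libraries. Again Il25 KO replicates 1 and 3 were the lowest, while replicate 2 lay just below the WT values and replicate 4 within them. Psma1 had a log2 fold change of -0.40 ± 0.14 (SE) at an adjusted p of 0.273 by edgeR. The log2 fold change of Psma4 was -0.54 ± 0.19 (SE) at an edgeR adjusted p of 0.292, and that of Psma6 was -0.24 ± 0.12 with 0.463. The log2 fold changes of Psma2, Psma3, Psma5 and Psma7 ran from -0.089 to 0.021. Psma3 was scarce, at 15.7 ± 2.46 CPM in Il25 KO and 16.7 ± 3.47 CPM in WT (± SD, 4 libraries each), and Psma7 abundant, at 620.1 ± 74.9 CPM in Il25 KO and 636 ± 62.8 CPM in WT. Psma8, which encodes the alpha subunit typical of germ cells, did not pass the filter, with 12 UMIs over the Il25 KO libraries and 11 over the WT libraries.

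The 4 structural beta genes all lay below 0 without passing the test. Psmb4, a beta ring subunit gene, stood at 843, 876, 668 and 998 CPM in the Il25 KO libraries and at 999.5, 1006, 919 and 1044 CPM in the WT libraries. Il25 KO replicate 3 stood lowest and replicate 4 lay within the WT values. Psmb3, which sits in the same ring, stood at 396, 281, 314 and 354 CPM in the Il25 KO libraries and at 408, 396, 338 and 412 CPM in the WT libraries. Its groups overlapped through Il25 KO replicates 1 and 4 and WT replicate 3. Psmb1, another of this ring, stood at 799.7, 939, 757 and 956 CPM in the Il25 KO libraries and at 948, 996, 866 and 959 CPM in the WT libraries. Il25 KO replicates 2 and 4 lay within the WT values. The log2 fold changes were -0.23 ± 0.12 for Psmb4, -0.21 ± 0.12 for Psmb3 and -0.13 ± 0.11 for Psmb1 (SE), with edgeR adjusted p of 0.510, 0.548 and 0.715. Psmb2 had -0.077 ± 0.13 (SE). Summed over the 15 constitutive core genes, the level was 4354, 4875, 4143 and 4867 CPM in the Il25 KO libraries and 4902, 5335, 4904 and 5245 CPM in the WT libraries. The highest Il25 KO library lay just below the lowest WT library in this sum, a gap smaller than the spread within either group.

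In the 19S base, the 6 ATPase genes lay below 0 and 0 passed. Psmc5, one of the ATPases, stood at 138, 142, 168 and 176 CPM in the Il25 KO libraries and at 174, 213, 169 and 206 CPM in the WT libraries. WT replicates 2 and 4 lay above every Il25 KO library, and WT replicates 1 and 3 lay among the higher Il25 KO ones. Psmc6, another ATPase, stood at 107, 176, 100.3 and 179 CPM in the Il25 KO libraries and at 140.1, 185, 198 and 164 CPM in the WT libraries. Il25 KO replicates 1 and 3 were far below the rest, and replicates 2 and 4 lay within the WT values. Psmc3, the most abundant ATPase gene, stood at 346, 384, 332 and 390.2 CPM in the Il25 KO libraries and at 374, 381, 386 and 426 CPM in the WT libraries. Its groups overlapped. The log2 fold changes were -0.29 ± 0.12, -0.30 ± 0.17 and -0.11 ± 0.10 (SE) for Psmc5, Psmc6 and Psmc3, with edgeR adjusted p of 0.381, 0.536 and 0.737. Psmc1, Psmc2 and Psmc4 ran from -0.096 to -0.063. Of the non-ATPase base genes, Psmd4, which encodes a ubiquitin receptor, stood at 239.7, 212, 233 and 273 CPM in the Il25 KO libraries and 291, 327, 246 and 329 CPM in the WT libraries. Only WT replicate 3 lay within the Il25 KO values. Psmd4 had a log2 fold change of -0.31 ± 0.12 (SE) at an adjusted p of 0.335 by edgeR. Psmd1, which encodes a scaffold subunit, stood at 177, 219, 243 and 208 CPM in Il25 KO and 168, 229, 232 and 251 CPM in WT, and Psmd2, which encodes the other scaffold, at 92.8, 76.6, 84.1 and 76.3 CPM in Il25 KO and 87.0, 73.2, 70.7 and 82.6 CPM in WT. Their log2 fold changes of -0.054 ± 0.13 and 0.078 ± 0.11 (SE) had opposite signs, each smaller than its standard error.

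The lid, which holds the enzyme that removes ubiquitin from the substrate, had the class median nearest to 0 among the subunits, -0.018 over 8 genes (-0.060 without WT replicate 1), with 6 below and 2 above 0. Psmd14, which encodes that deubiquitinating enzyme, stood at 219, 203, 195 and 206 CPM in the Il25 KO libraries and at 183, 186, 193 and 197 CPM in the WT libraries. It had the highest log2 fold change of the lid, 0.12 ± 0.098 (SE, edgeR adjusted p = 0.707), and Il25 KO replicate 3 lay within the WT values. Psmd3, a lid subunit gene, stood at 175, 183, 219 and 203 CPM in the Il25 KO libraries and at 236, 249, 182 and 228 CPM in the WT libraries. Psmd13, another, stood at 201, 163, 188 and 231 CPM in the Il25 KO libraries and at 234, 225, 183 and 261 CPM in the WT libraries. In both, WT replicate 3 was low and lay among the Il25 KO values. The log2 fold changes were -0.20 ± 0.12 for Psmd3 and -0.21 ± 0.13 for Psmd13 (SE), with edgeR adjusted p of 0.565 and 0.575. The remaining 5 lid genes, Psmd6, Psmd7, Psmd8, Psmd11 and Psmd12, ran from -0.041 to 0.0059. Summed over the 17 genes of the 19S particle, the level was 3371, 3348, 3395 and 3659 CPM in the Il25 KO libraries and 3516, 3803, 3499 and 3954 CPM in the WT libraries. Il25 KO replicate 4 lay within the WT values and the other 3 below them.

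The activators, which dock on the ends of the core in place of the 19S particle, did not pass the test, and their log2 fold changes were smaller than their standard errors. Psme1, which encodes the alpha chain of the interferon-inducible PA28 ring, stood at 895, 917, 775 and 983 CPM in the Il25 KO libraries and at 898, 894, 868 and 935 CPM in the WT libraries. Psme2, its beta chain, stood at 400.0, 476, 372 and 407 CPM in the Il25 KO libraries and at 413, 463, 425 and 451 CPM in the WT libraries. Psme3, which encodes a nuclear relative, stood at 94.7, 111, 141 and 109 CPM in the Il25 KO libraries and at 105, 122, 121 and 136 CPM in the WT libraries. In these genes the groups overlapped, and the lowest and the highest of the 8 values of Psme1 were both Il25 KO libraries. The log2 fold changes were -0.01 ± 0.11, -0.084 ± 0.11 and -0.087 ± 0.12 (SE) for Psme1, Psme2 and Psme3, with edgeR adjusted p of 0.988, 0.817 and 0.840. Psme4, which encodes the large activator PA200, had -0.089 ± 0.14 (SE). Psme2b, a copy of Psme2, had 0.035 ± 0.21 (SE), and no source used here states how reads that match both genes were treated. Psmf1, which encodes a binding partner and inhibitor of the core, was scarce, at 10.3 ± 2.34 CPM in Il25 KO and 9.76 ± 2.44 CPM in WT (± SD, 4 libraries each), with a log2 fold change of 0.053 ± 0.24 (SE).

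Among the chaperones that assemble the core, Psmg1 was the second gene whose groups did not overlap. Psmg1, which pairs with the Psmg2 product to start the alpha ring, stood at 111, 109.7, 81.6 and 98.4 CPM in the Il25 KO libraries and at 113, 124, 118 and 122 CPM in the WT libraries. WT replicate 1 was only slightly above Il25 KO replicate 1. Psmg1 had a log2 fold change of -0.26 ± 0.11 (SE) at an adjusted p of 0.410 by edgeR. Psmg4, which encodes another core chaperone, stood at 202, 203, 159.9 and 246 CPM in the Il25 KO libraries and at 251, 241, 221 and 229 CPM in the WT libraries. Psmg3, its partner, stood at 150.2, 149.6, 124 and 176 CPM in the Il25 KO libraries and at 181, 157, 141 and 166 CPM in the WT libraries. Both overlapped, with Il25 KO replicate 3 the lowest of the 8. The log2 fold change was -0.22 ± 0.12 for Psmg4, -0.11 ± 0.12 for Psmg3 and 0.044 ± 0.1 for Psmg2 (SE), with edgeR adjusted p of 0.537, 0.783 and 0.915. Of the chaperones of the 19S base, Psmd5 had 0.14 ± 0.13 and Psmd10 -0.16 ± 0.19 (SE), with opposite signs. Psmd5 stood at 54.4, 45.5, 58.0 and 53.8 CPM in Il25 KO and 40.3, 44.9, 53.5 and 53.1 CPM in WT, and Psmd10 at 20.1, 31.1, 28.7 and 23.3 CPM in Il25 KO and 20.6, 36.6, 32.8 and 25.0 CPM in WT. Psmd9 did not pass the filter, with 20 UMIs over the Il25 KO and 25 over the WT libraries. Psmc3ip matches the symbol rule but encodes a factor of meiotic recombination and no proteasome subunit, and it had 0.12 ± 0.11 (SE, edgeR adjusted p = 0.751).

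The small differences were not spread evenly over the libraries. Il25 KO replicate 3 was the lowest of the 8 libraries in 19 of the 47 genes, replicate 1 in 10, replicate 2 in 9 and replicate 4 in 0. Among the WT libraries, replicate 1 was the lowest in 7 genes and replicate 3 in 2. The median deviation of the 47 genes from their own means over 8 libraries, in log2(CPM + 1), was -0.086, 0.00025, -0.15 and 0.038 in the Il25 KO libraries and -0.018, 0.089, 0.035 and 0.10 in the WT libraries. The groups overlapped in this value, since Il25 KO replicates 2 and 4 lay above WT replicate 1. Psma1, Psma4, Psma6, Psmc6 and Psmb5 shared low values in Il25 KO replicates 1 and 3, a grouping noticed after the values were seen.

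**Figure D4:**
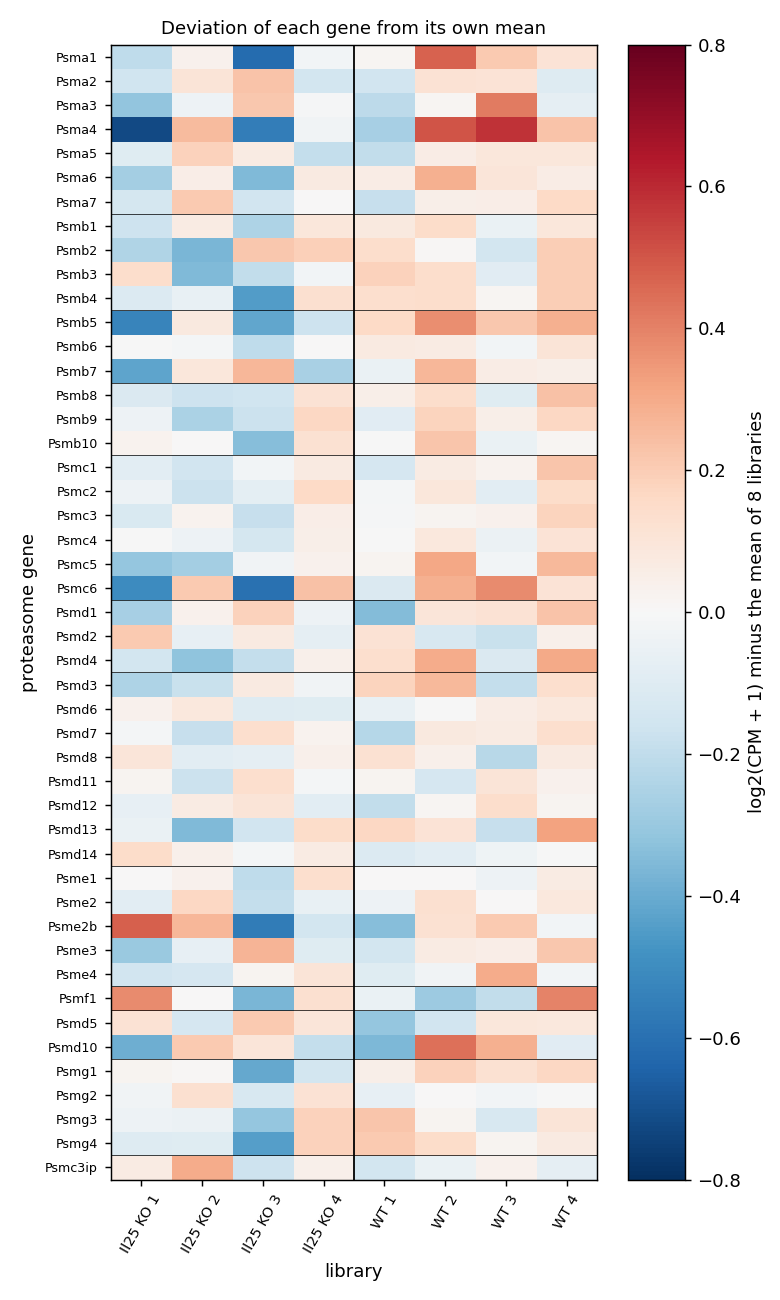
Deviation of each of the 47 proteasome genes tested (rows, grouped by class) from its own mean over the 8 libraries (columns, Il25 KO left and WT right), in log2(CPM + 1), with red above and blue below the mean. Blue cells gather in Il25 KO replicates 1 and 3, and Psmb5 is blue in 3 of 4 Il25 KO libraries and near 0 in replicate 2, and red in all 4 WT libraries.

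Genes that work with the proteasome showed no common direction. Of 26 tested genes for ubiquitin, ubiquitin shuttles, proteasome-bound enzymes and regulators, 0 were called by edgeR, beside 0.211% of all genes. At an unadjusted p under 0.05, 3 of the 26 were higher and 4 lower, both larger shares than the 5.12% higher and 5.71% lower of all genes. The median log2 fold change was 0.02, with 11 below and 15 above 0. Ubqln1, which encodes a shuttle that carries tagged proteins to the proteasome, had a log2 fold change of -0.24 ± 0.10 (SE, edgeR adjusted p = 0.410). It was the 1 gene of the 26 in which every Il25 KO library lay below every WT library, beside 2.31% of all genes. Fbxo7, which encodes an F-box protein that binds the Psmf1 product, had 0.37 ± 0.12 (SE, edgeR adjusted p = 0.233). It was the 1 gene of the 26 in which every Il25 KO library lay above every WT library, beside 2.92% of all genes. Rps27a, which fuses ubiquitin to a ribosomal protein, stood at 2854 ± 1247 CPM in Il25 KO and 4385 ± 1332 CPM in WT (± SD, 4 libraries each). Its log2 fold change was -0.62 ± 0.24 (SE) at an edgeR adjusted p of 0.361, and copies of ribosomal protein genes can take its reads. Nfe2l1, which encodes the factor that raises proteasome genes when the proteasome is blocked, had -0.13 ± 0.17 (SE), and Pomp, which encodes a core maturation factor, 0.0077 ± 0.11 (SE).

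Interferon gamma induces immunoproteasome genes, so its transcript and the class I pathway were set beside them. Ifng rose to 274, 275, 233 and 333 CPM in the Il25 KO libraries, against 195, 167, 162 and 181 CPM in the WT libraries, a log2 fold change of 0.66 ± 0.12 (SE, edgeR adjusted p = 0.0187). It was the 1 called gene of the 17 of class I antigen processing and its regulators, and of the 16 others 0 passed, beside 0.177% of all genes called higher and 0.0333% called lower. Its direction was the same without any 1 library, but its edgeR adjusted p was above the threshold without Il25 KO replicate 4 (0.0501), WT replicate 2 (0.113), WT replicate 3 (0.0612) or WT replicate 4 (0.0695). Irf1, which encodes an interferon-induced transcription factor, stood at 354, 266, 307 and 321 CPM in Il25 KO and 256, 192, 208 and 221 CPM in WT. Its groups did not overlap, beside 2.92% of all genes in which Il25 KO lay above without overlap. The log2 fold change of Irf1 was 0.51 ± 0.12 (SE) at an edgeR adjusted p of 0.0904. DESeq2 gave Irf1 an adjusted p of 0.0154. In these same libraries Psmb8, Psmb9 and Psmb10 had log2 fold changes below 0. Tap1 and Tap2, which encode the peptide transporter, had 0.012 ± 0.12 and 0.11 ± 0.12 (SE), and B2m, the light chain of class I, -0.064 ± 0.13. Tapbp, which encodes the chaperone tapasin, had 0.27 ± 0.12, Irf2 0.33 ± 0.21, the chaperone gene Canx -0.24 ± 0.16 and the interferon gamma receptor gene Ifngr1 0.14 ± 0.11 (SE), with edgeR adjusted p of 0.410, 0.594, 0.610 and 0.681. The median log2 fold change over the 17 genes was 0.057, with 7 below and 10 above 0.

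By the GENCODE M21 annotation (GRCm38, or mm10), the 6 catalytic genes and Psmg1 are protein-coding. Psmb5 lies on chromosome 14 from 54614119 to 54618022, Psmb6 on chromosome 11 from 70525367 to 70527858 and Psmb7 on chromosome 2 from 38588036 to 38644087. Psmb8 and Psmb9 lie within the MHC region, Psmb8 on chromosome 17 from 34197721 to 34201454 and Psmb9 on chromosome 17 from 34181987 to 34187764. Psmb10 lies on chromosome 8 from 105935735 to 105938444 and Psmg1 on chromosome 16 from 95979933 to 95990960.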

How the data were processed

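The single table deposited by the authors held raw UMI counts per gene and library, whole numbers per the file headers, which alone were used for levels and tests. It also held normalized signal values (counts scaled per library), regularized log2 values, a log2 fold change (its sign, WT over KO, was turned here) and a p-value per gene, all made by the authors per the file headers. The normalized and regularized values were not used. Tools named in the submitters' processing notes were STAR 2.5.2b, HTSeq, bcl2fastq, cutadapt and DESeq2, with the build mm10 and no roles. No source used here gives the annotation, the strand setting or the treatment of reads that match several genes. Replicates were not pooled.

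The main test was that of edgeR 4.0.16 in R 4.3.3 (filterByExpr, minimum count 10, 9016 of 10913 genes kept, TMM scaling, a quasi-likelihood fit with the group as the only term, and Benjamini-Hochberg adjustment over all genes tested, threshold 0.05). Standard errors were derived from the F statistic. The fit was tested on simulated data, with the changed genes drawn from all genes tested. There it missed more changes than it recovered at a fold above that of any proteasome gene here. The proteasome genes were more abundant, with a median of 183 CPM against 21.4 CPM for all listed genes. The rate of misses is therefore not that of the proteasome genes, for which it was not measured. A gene that was not called is still not shown to be unchanged. No pair of libraries agreed within sampling noise. Alternatives used DESeq2 1.42.0, limma-voom (limma 3.58.1), other scalings, no filter, a replicate block, a depth covariate, an adjusted p under 0.1, and each library left out. The members and gene lists were chosen with earlier results of these data known. Values in every library were given for Psmb5 to Psmb10, Psme1 to Psme3, any called member and up to 3 genes of lowest p in each other class, and values of the partner and class I lists for called genes and the 6 of lowest p. No values are given here for 3 partner genes that the rule selects. Nfe2l1, Pomp, Tap1, Tap2 and B2m were named outside that rule, after their values were seen. Gene positions came from GENCODE M21, matched by symbol for all 49 members. Intervals on shares cover counting error only.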

Additional observations from a re-analysis of the deposited data

Results flagged for a closer look

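In 6 of 130 groups of 4 values examined (each gene tested, each class sum and each catalytic share, in each genotype), 1 library stood far from the other 3 by Dixon's criterion for the gap relative to the range. Chance alone flags about 1 in 20 such groups. In Il25 KO, replicate 3 held 531 CPM of Psmb6, where the other 3 held 606 to 613 CPM. Il25 KO replicate 4 held 1391 CPM of Psmb8, where the others held 1147 to 1185 CPM, and its sum over the 17 genes of the 19S particle was 3659 CPM, where the others had 3348 to 3395 CPM. Among the WT libraries, replicate 1 held 159 CPM of Psma5, where the others held 189.7 to 194 CPM. WT replicate 2 held 269.6 CPM of Psma6, where the others held 230.0 to 236 CPM. WT replicate 3 held 43.6 CPM of Psme4, where the others held 33.0 to 34.8 CPM.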

How the results depend on the processing

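The number of proteasome genes called lower, 0 by the edgeR fit, was 1 by DESeq2, 1 with the replicate number as a block, 1 with log2 total count as a covariate and 0 to 1 with a library left out, the 1 without Il25 KO replicate 2, and in each case the gene was Psmb5. Over all 16 fits its edgeR, DESeq2 or limma-voom adjusted p ran from 0.0161 to 0.380 and its log2 fold change from -0.62 to -0.42; the cause was not tested. No proteasome gene was called higher in any of these fits, and edgeR called 0 at an adjusted p under 0.1. With the block, 60 of all genes were called, against 19 without it, and Psmb5 had an edgeR adjusted p of 0.0296. With a library left out, the number of all genes called by edgeR ran from 1 (WT replicate 2 left out) and 4 (WT replicate 4 left out) up to 39 (Il25 KO replicate 2 left out). The replicate numbers were not shown to pair the libraries, since the deviations of same-numbered libraries correlated at 0.14, -0.006, -0.00025 and 0.089 over replicates 1 to 4 and Il25 KO replicate 2 correlated most with WT replicate 3. The median log2 fold change of the proteasome genes stayed below 0, at -0.125 to -0.063 over all settings. Class medians moved more: that of the constitutive catalytic genes was -0.27 without Il25 KO replicate 3, that of the base non-ATPases -0.16 without WT replicate 1, that of the 20S chaperones -0.071 without Il25 KO replicate 3 and that of the 19S chaperones -0.16 with no filter. The medians of the alpha ring, the base non-ATPases, the lid and the 19S chaperones crossed 0 in some settings. Genes near 0 changed sign: with library size alone, Psma5 at 0.00896, Psmd7 at 0.00402, Psmd8 at 0.021, Psmd11 at 0.021 and Psme1 at 0.015; with limma-voom, Psme2b at -0.022; with log2 total count as a covariate, Psmb2 at 0.0043, Psmd1 at 0.017, Psmd7 at 0.061, Psmd11 at 0.046 and Psme2b at -0.039. With a library left out, the log2 fold changes of the genes that changed sign ran over these ranges: Psma3 -0.20 to 0.067, Psma5 -0.085 to 0.035, Psma7 -0.11 to 0.011, Psmd1 -0.16 to 0.024, Psme2b -0.16 to 0.22, Psmf1 -0.093 to 0.25, Psma2 -0.062 to 0.076, Psmb2 -0.17 to 0.021, Psmd7 -0.098 to 0.034, Psmd8 -0.080 to 0.029, Psmd11 -0.062 to 0.045, Psmd12 -0.054 to 0.057, Psmb10 -0.15 to 0.00019, Psme1 -0.061 to 0.050 and Psme4 -0.14 to 0.011. None of these genes was called in any of the 16 fits. Depth limits the scarce genes most: Psma8 and Psmd9 held too few UMIs to be tested, and Psma3, Psmf1 and Psme2b had standard errors of 0.20 to 0.24.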
